A study of Homo sapiens with 3 samples.

Results

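Ribosome biogenesis factors, the proteins that transcribe, modify, cleave and package ribosomal RNA, were examined at the promoters of 60 named genes. These were among 20098 protein-coding genes on chromosomes 1 to 22 and X. The set is called the nucleolar factors below, as a group name only. It includes factors of late small subunit maturation, such as NOB1, RIOK1, RIOK2, LTV1, PNO1 and TSR1. The name does not place every protein in the nucleolus, and where each acts was not examined. The genes were listed by name and function, with earlier results of these data known. MDA-MB-231, an established human triple-negative breast cancer line grown with serum and carrying no genetic change or drug treatment in the labels, was fixed in 1% formaldehyde over 10 min. Its chromatin was precipitated with an antibody to BMAL1 or to MAX, and a single input library from the same line served as the control for both. A peak was the stretch that the authors' peak caller listed for an antibody. Its fold enrichment was the deposited ratio of fragment pileup at the summit to the input background. That background was local, or a genome-wide value where the local one was lower. A gene was counted as having a promoter peak when a peak summit lay within 1 kb of any of its transcription start sites (TSSs).

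Ribosome production starts when RNA polymerase I transcribes a long precursor in the nucleolus. Small nucleolar ribonucleoproteins (snoRNPs) guide chemical modification of the precursor, the U3-containing small subunit processome folds and cleaves its 5′ part, and further factors assemble the 40S and 60S subunits. MAX is the obligate dimerization partner of MYC and of the MXD and MNT repressors, and its dimers recognise the E-box CACGTG. Genes of ribosome biogenesis are textbook targets of MYC in growing cells. BMAL1, with CLOCK, is the activating arm of the circadian clock and recognises the same hexamer.

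The MAX list held 13650 peaks and rested on 11545865 tags, and the BMAL1 list held 756 peaks and rested on 13866783 tags. With 1 library per antibody no value had a replicate check, so counts are given with Wilson 95% intervals, which cover counting error over genes only, and no test was made. Genes are not replicates, and the share or median over all protein-coding genes (members included) stands beside the values of the members. Where no peak is given for a gene, none reached the cutoff of the peak caller at this depth.

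The sequences at the strongest MAX sites are shown because the same hexamer recurred at most of them. Each line gives 30 bases of hg19 on the strand of the gene, with the CACGTG nearest to the MAX summit and 12 bases on either side, for the members among the 10 highest in MAX fold enrichment that had such a hexamer within 100 bp of the summit. CACGTG is in capitals.
UTP20, chr12:101673922-101673951, plus strand: gggctcaagccgCACGTGagaaagtctggg
LTV1, chr6:144164491-144164520, plus strand: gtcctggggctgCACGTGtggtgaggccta
NPM1, chr5:170815577-170815606, plus strand: gCACGTGgttgcCACGTGgttgggggaggg
NOC3L, chr10:96122660-96122689, minus strand: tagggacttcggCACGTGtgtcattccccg
NAT10, chr11:34127149-34127178, plus strand: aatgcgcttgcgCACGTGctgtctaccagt
RIOK1, chr6:7390084-7390113, plus strand: gttttcccgtcgCACGTGgtggccactgtt
NOL6, chr9:33473892-33473921, minus strand: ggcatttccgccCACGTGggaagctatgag
IMP4, chr2:131100473-131100502, plus strand: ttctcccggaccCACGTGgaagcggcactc
PPAN and RRP1B, the other members of the 10 highest, had no CACGTG within 100 bp of the summit. The hexamers of UTP20, LTV1, NOC3L, RIOK1, NOL6 and IMP4 lay just downstream of the canonical TSS, at 54, 31, 22, 58, 16 and 18 bases after it, counted to the fourth base of the hexamer. That of NAT10 lay 12 bases before the canonical TSS, and that of NPM1 lay in intron 1.

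The same window is shown for the other 4 members that had a BMAL1 promoter peak, since BMAL1 and MAX share this recognition sequence.
NCL, chr2:232328551-232328580, minus strand: ctggcaagccgaCACGTGgtgggccccgga
PNO1, chr2:68385017-68385046, plus strand: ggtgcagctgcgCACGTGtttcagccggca
RRP9, chr3:51975908-51975937, minus strand: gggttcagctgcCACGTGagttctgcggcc
UTP18, chr17:49337806-49337835, plus strand: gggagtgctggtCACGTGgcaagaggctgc
Within 100 bp of the MAX summit NCL held 3 CACGTG hexamers, NPM1 held 2 and DKC1 held 2, and every other member held at most 1. The repeated sites of NPM1 and DKC1, both in intron 1, are shown as the stretch that spans them with 12 bases on either side, a choice made after the values were seen.
NPM1, chr5:170815566-170815606, plus strand: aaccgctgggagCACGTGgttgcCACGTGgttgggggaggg
DKC1, chrX:153991789-153991845, plus strand: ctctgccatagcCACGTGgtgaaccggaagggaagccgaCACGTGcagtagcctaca

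MAX lay at nearly all of these promoters. A MAX promoter peak was listed for 57 of the 60 genes (95%, interval 86.3 to 98.3), where the background was 36.4% of all protein-coding genes (7310 of 20098). Among 60 other ribosome biogenesis genes the share was 83.3% (50 genes, interval 72.0 to 90.7), and among 87 cytosolic ribosomal protein genes it was 89.7% (78 genes, interval 81.5 to 94.5). The intervals of these groups overlapped that of the nucleolar factors. Mitochondrial ribosomal protein genes stood lower, at 69.2% (54 of 78, interval 58.3 to 78.4).

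Many of these peaks were among the highest of the list. The highest promoter peak fell in the top 10% of the MAX list for 28 of the 60 genes (46.7%, interval 34.6 to 59.1), beside 5.79% of all protein-coding genes. The share was 25% in the other ribosome biogenesis genes (interval 15.8 to 37.2), 16.1% in the cytosolic ribosomal protein genes (interval 9.83 to 25.2) and 6.41% in the mitochondrial ones (interval 2.77 to 14.1). The interval of the nucleolar factors lay above those of both ribosomal protein groups and overlapped that of the other biogenesis genes. In the top 5% of the list stood 24 of the 60 genes, beside 3.06% of all protein-coding genes.

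**Figure D1:**
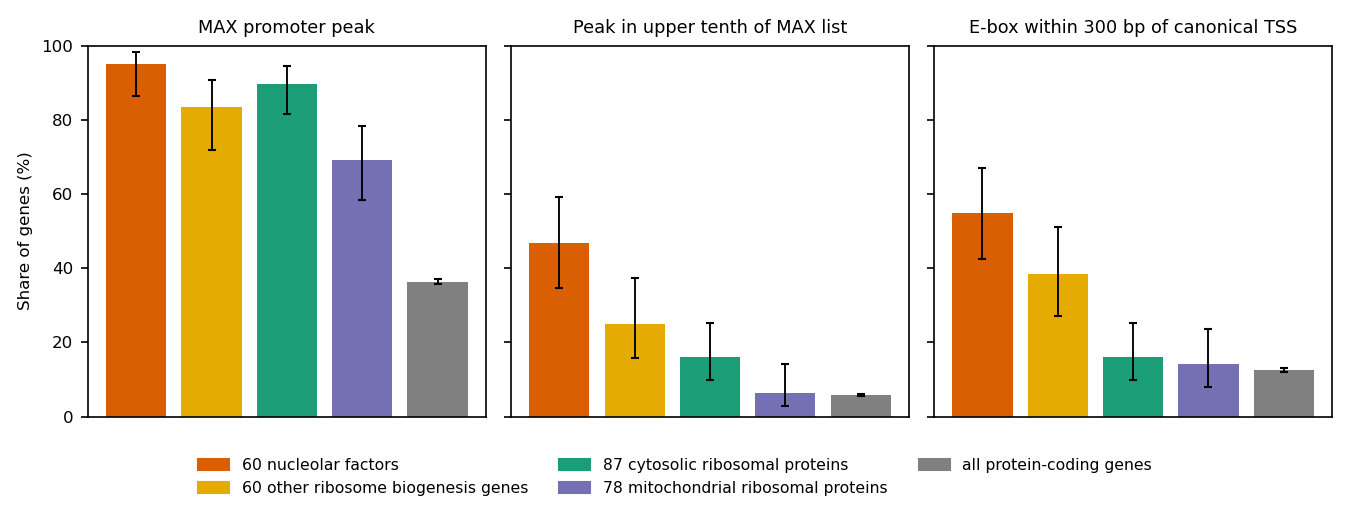
Share of genes (%, bars from 0) with a MAX promoter peak, with a highest promoter peak in the top 10% of the MAX list, and with an E-box within 300 bp of the canonical TSS, for the nucleolar factors, 3 compared gene groups and all protein-coding genes. Error bars are Wilson 95% intervals. The nucleolar factors (orange) reached 95%, 46.7% and 55.0% and stood highest in each panel, while the cytosolic ribosomal protein genes came near them only in the first.

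Over the 57 genes with a peak, MAX fold enrichment had a median of 15.7 (quartiles 12.1 and 22.9, range 4.79 to 32.5), with a 95% order-statistic interval of 14.1 to 20.9 for the median. All protein-coding genes with a MAX promoter peak had a median of 10.8 (quartiles 8.57 and 13.9), and the whole MAX list a median of 9.73. The median was 13.7 in the other biogenesis genes, 11.7 in the cytosolic and 9.52 in the mitochondrial ribosomal protein genes. A median nucleolar factor thus carried a peak higher than 89.5% of the MAX list, where the median bound protein-coding gene stood at 61.3%. Of the 57 genes, 49 lay above the median of the list and 8 below, and 61.2% of all protein-coding genes with a MAX promoter peak lay above it.

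**Figure D2:**
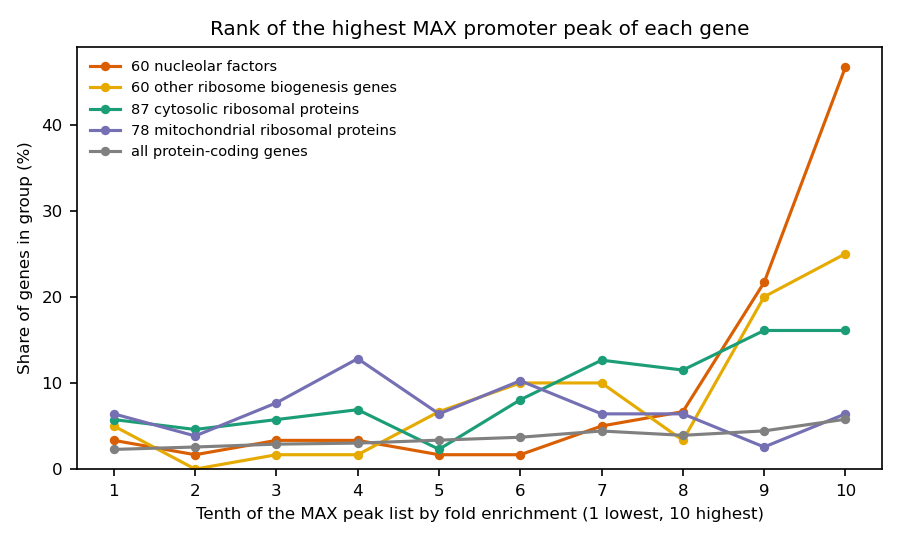
Share of genes in each group (%, vertical axis) whose highest MAX promoter peak fell in each successive 10% of the MAX list by fold enrichment (horizontal axis, 1 lowest to 10 highest). The line of the nucleolar factors is low through the first 7 bins and climbs to 46.7% in the last, while all protein-coding genes end at 5.79% and the mitochondrial ribosomal protein genes at 6.41%.

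Some members shared their highest peak with a neighbouring gene. The 57 highest peaks were 57 distinct peaks, and 49 genes had 1 promoter peak, 7 had 2 and WDR74 had 3, making 66 in all. The share with 2 or more was 14.0%, near the 16.4% of all protein-coding genes with a peak. In 21 of the 57 genes the highest peak also lay within 1 kb of the TSS of another protein-coding gene, so that it could not be assigned to the member alone. The like share over all protein-coding genes was not counted. In PPAN the only other gene was PPAN-P2RY11, a readthrough that includes PPAN itself. The 7310 protein-coding genes with a MAX promoter peak had 6163 distinct highest peaks between them. Of the 66 peaks, those nearest to the 1 kb limit lay 984 bp (WDR74), 652 bp (UBTF), 613 bp (RIOK2) and 570 bp (DKC1) from a TSS, the first 2 being weaker peaks of genes with a higher one. The next peaks outside the limit lay 1162 bp (near UTP18) and 1490 bp (near RRP12) away.

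**Figure D3:**
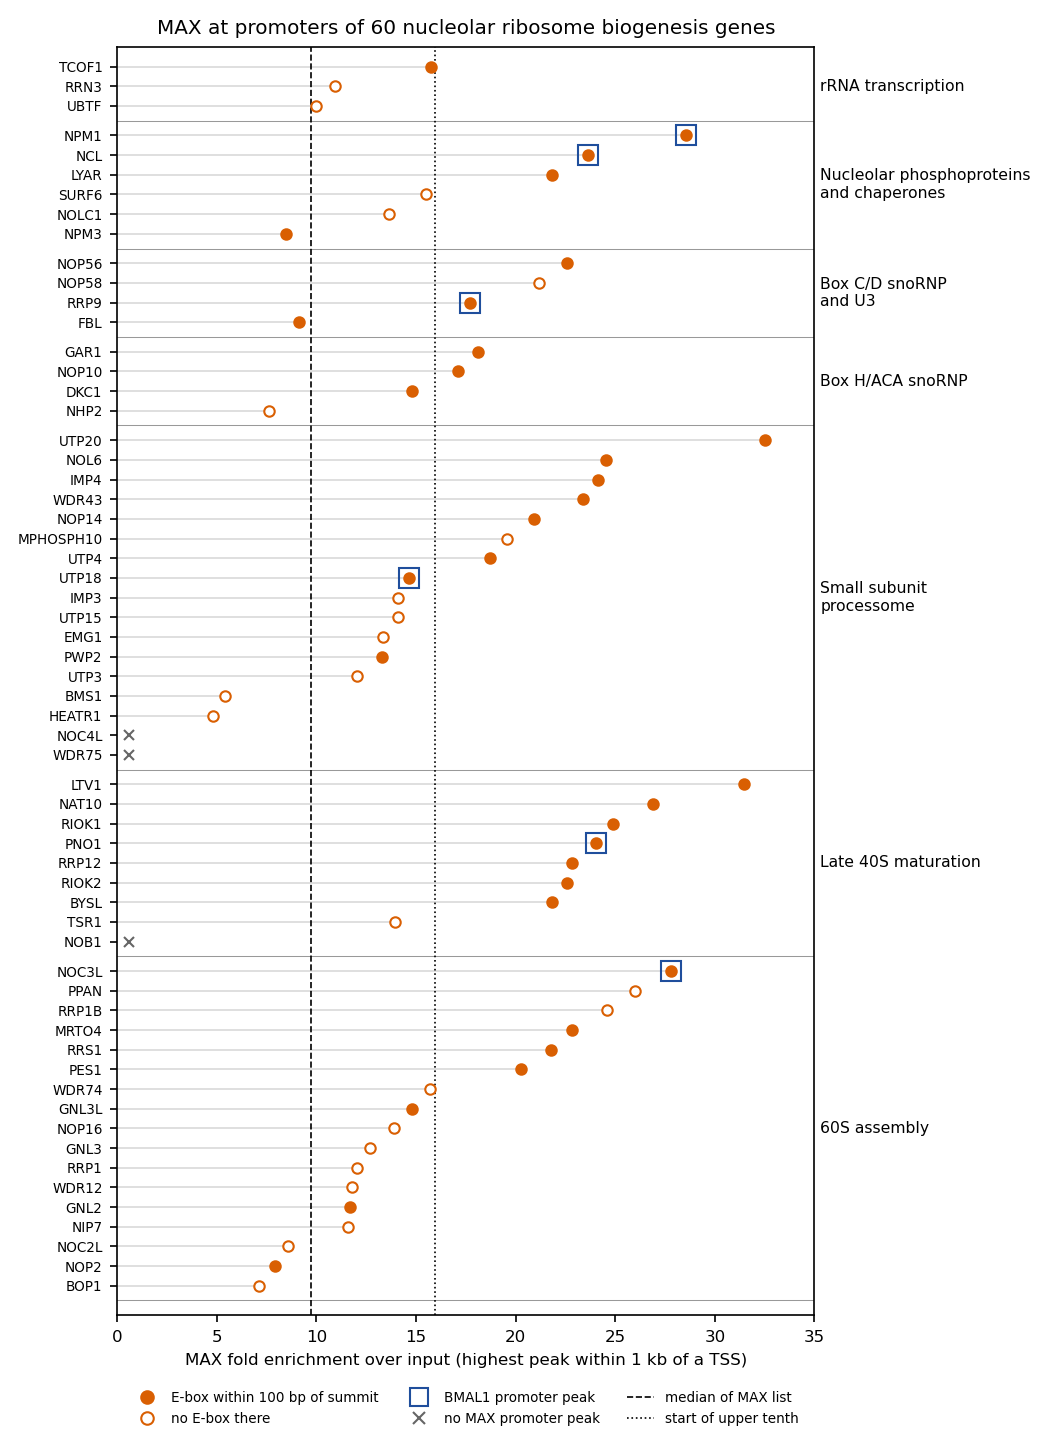
MAX fold enrichment over input (horizontal axis, linear from 0) at the highest promoter peak of each of the 60 genes, grouped by role. Filled points had an E-box within 100 bp of the summit, blue squares mark a BMAL1 promoter peak, crosses mark genes with no MAX promoter peak, and the lines mark the median of the MAX list (9.73) and the start of its top 10% (15.9). Most late 40S factors lie right of the dotted line, and the 3 genes of rRNA transcription lie left of it.

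Genes of ribosomal DNA transcription all had a MAX promoter peak, of moderate height. TCOF1, which encodes treacle, a nucleolar scaffold for polymerase I transcription, had a fold enrichment of 15.7 at a summit in intron 1. RRN3, the initiation factor that recruits polymerase I, reached 10.9, and UBTF, the upstream binding factor that holds ribosomal DNA open, reached 9.99. None of the 3 entered the top 10% of the list, and only TCOF1 held CACGTG at the summit. The UBTF summit lay 14 bp from an alternative TSS and 1121 bp downstream of the canonical start.

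The abundant nucleolar phosphoproteins and chaperones had a median of 18.7 over 6 genes, all with a peak. NPM1, nucleophosmin, the histone chaperone that gives the nucleolus its granular component, was the highest at 28.6, above 99.4% of the list, and had a weaker peak of 14.8 upstream. NCL, nucleolin, an RNA-binding protein of the nucleolus and a MYC target of the study, had a fold enrichment of 23.6 on a pileup of 67 fragments. Both summits lay in intron 1, at 740 and 637 bp downstream of the canonical TSS and 23 and 154 bp from an alternative one. LYAR, a nucleolar zinc-finger protein, followed at 21.8. SURF6 (15.5), NOLC1 (13.6), the snoRNP chaperone Nopp140, and NPM3 (8.46), a nucleoplasmin-family chaperone, lay below the top 10%, and NPM3 lay below the median of the list.

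In the box C/D particle, which directs 2′-O-methylation of ribosomal RNA, the proteins did not stand alike. NOP56 and NOP58, the paired core proteins, had MAX fold enrichments of 22.6 and 21.2. RRP9, the U3-specific protein, reached 17.7. FBL, fibrillarin, the methyltransferase itself, had only 9.14, below the median of the list, on a pileup of 18 fragments. FBL nevertheless had an E-box 9 bases downstream of its canonical TSS, 91 bp from the summit.

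The box H/ACA particle, which converts uridine to pseudouridine, showed a similar spread. GAR1 had a fold enrichment of 18.1, NOP10 of 17.1 and DKC1, dyskerin, the pseudouridine synthase, of 14.8. NHP2, the remaining core protein, had 7.62 with a summit in a coding exon and no CACGTG within 1 kb of it. Among the 4 genes grouped here under each snoRNP, 1 thus lay below the list median while the other 3 lay above it.

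The small subunit processome, which builds around the nascent 18S region, held the highest peak of all 60 genes and 2 of the 3 genes without one. UTP20, a large scaffold protein, had a fold enrichment of 32.5 on a pileup of 73 fragments (chr12:101673691-101674283), rank 42 of the 13650 MAX peaks. NOL6 (24.6) and IMP4 (24.2), components that associate with U3, WDR43 (23.4), NOP14 (20.9), MPHOSPH10 (19.6) and UTP4 (18.7) were also in the top 10%. UTP18 (14.7), IMP3 (14.1), UTP15 (14.1), EMG1 (13.4), PWP2 (13.3) and UTP3 (12.1) lay between the median and the top 10%. BMS1, a GTPase, and HEATR1, the human counterpart of yeast Utp10, had the lowest peaks of all, at 5.39 and 4.79, above only 2.56% and 1.14% of the list. Over the 15 genes with a peak the median was 14.7.

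The factors grouped here under late 40S maturation had the highest median of any role, 23.4 over 8 genes with a peak, and 7 of those 8 lay in the top 10% of the list. LTV1, an assembly factor of the small subunit head, reached 31.5. NAT10, the acetyltransferase of 18S rRNA, reached 26.9, and RIOK1, an atypical kinase of the pre-40S particle, 24.9. PNO1, the partner of the nuclease NOB1, had 24.0, and RRP12 (22.9), RIOK2 (22.6) and BYSL (21.9) stood close to it. TSR1, at 14.0, was the exception, and it was also the only one of the 8 without CACGTG at the summit. NOB1, the nuclease that makes the final cut of 18S rRNA, had no MAX promoter peak.

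All 17 factors of 60S assembly had a MAX promoter peak, with a median of 13.9 and 6 in the top 10%. NOC3L (27.8), PPAN (26.0), RRP1B (24.6), MRTO4 (22.9), RRS1 (21.8) and PES1 (20.3) were those 6. PES1, BOP1 and WDR12 form 1 complex, needed to process the precursor of the large subunit, and their peaks were unequal. BOP1 had a fold enrichment of 7.13, and its summit also lay within 1 kb of a TSS of HSF1. WDR12 had 11.8 at a distant alternative TSS, and that summit also lay within 1 kb of a TSS of NBEAL1. At the peak nearest to its canonical start WDR12 had 6.77. WDR74 (15.7), GNL3L (14.8), NOP16 (13.9), GNL3 (12.7), which encodes nucleostemin, RRP1 (12.1), GNL2 (11.7) and NIP7 (11.6) lay above the list median, and NOC2L (8.57) and the methyltransferase gene NOP2 (7.90) below it.

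No MAX promoter peak was listed for WDR75, NOC4L and NOB1. The nearest MAX summit lay 212273 bp from a TSS of WDR75, 38783 bp from NOC4L and 25625 bp from NOB1. None of the 3 had CACGTG within 300 bp of its canonical TSS. The hexamer nearest to that TSS lay 325 bp away in WDR75 and 435 bp away in NOC4L, and none was found within 1 kb in NOB1.

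BMAL1 promoter peaks were few. They were listed for 6 of the 60 genes (10.0%, interval 4.66 to 20.1), beside 1.85% of all protein-coding genes, for 1 of the other biogenesis genes, for none of the 87 cytosolic (interval up to 4.23%) and for 2 of the 78 mitochondrial ribosomal protein genes. All 6 had a MAX promoter peak too, so that 10.0% of members had both, beside 1.77% of all protein-coding genes. Of the 372 protein-coding genes with a BMAL1 promoter peak, 355 (95.4%) also had one for MAX, so 6 of 6 lay near the background. The 6 were NCL, NPM1, RRP9, UTP18, PNO1 and NOC3L, of which NCL and NPM1 belong to the phosphoproteins and chaperones and the others to 4 further roles.

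BMAL1 fold enrichment at these sites was moderate. RRP9 had the highest value, 17.3 for BMAL1 beside 17.7 for MAX, with summits 22 bp apart. PNO1 had 15.5 for BMAL1 and 24.0 for MAX, with summits 13 bp apart, and UTP18 had 13.3 and 14.7, with summits 48 bp apart. In all 6 genes the BMAL1 peak overlapped the MAX peak, and the summits were never more than 88 bp apart. NPM1 had 11.6 for BMAL1 and 28.6 for MAX, and NOC3L had 8.23 and 27.8. NCL, which had a MAX peak above 98.2% of its list, had the lowest BMAL1 value, 6.13, above only 7.94% of the BMAL1 list. The study treated NCL as a non-circadian MAX target and reported negligible change of its transcript upon BMAL1 knockdown. None of the 6 BMAL1 peaks entered the top 10% of the BMAL1 list, and 4 lay above its median of 10.3. Their median was 12.5, beside 11.3 for the highest BMAL1 promoter peaks of all protein-coding genes with one. The values of the 2 antibodies come from separate lists over the same input and are set side by side without a comparison of level.

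The members with a BMAL1 peak were mostly those with high MAX peaks. Of the 6, 5 lay in the top 10% of the MAX list, all but UTP18, where 50.8% of the 372 protein-coding genes with a BMAL1 promoter peak did. Among members in that top 10%, 5 of 28 (17.9%) had a BMAL1 promoter peak, and among all protein-coding genes in it, 189 of 1163 (16.3%) did. Within the top 10% of the MAX list the share of members with a BMAL1 peak thus lay close to that of all protein-coding genes.

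The E-box was frequent at the MAX summits. CACGTG occurred in the 200 bp centred on the summit in 33 of 57 genes (57.9%, interval 45.0 to 69.8), beside 20.9% of the protein-coding genes with a MAX promoter peak. It occurred in 38.0% of the other biogenesis genes with a peak, in 19.2% of the cytosolic and in 11.1% of the mitochondrial ribosomal protein genes. Thus the cytosolic ribosomal protein genes, nearly as often occupied, were near the background in this hexamer. Anywhere in the peak, CACGTG was found in 41 of the 57 genes (71.9%), beside 30.2%. The median peak length was 749 bp in the members and 508 bp over all protein-coding genes with a peak, and the part of length in that count was not tested.

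Other hexamers were less marked. CACGCG (or its reverse complement CGCGTG) occurred at 17 of the 57 summits (29.8%, against 19.7% over all protein-coding genes with a peak), CACGTT or AACGTG at 2 (3.51% against 6.44%) and CATGTG or CACATG at 3 (5.26% against 8.13%). None of these 4 motifs was found at 11 summits (19.3%), where 53.3% of the protein-coding genes with a peak had none. PPAN was among them, with the sixth highest fold enrichment of all members (26.0) and no CACGTG within 1 kb of its summit. In RRP1B, MPHOSPH10 and NOP58, the other members of the top 10% without the hexamer at the summit, the nearest CACGTG lay 117, 142 and 143 bp away.

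The E-box lay close to the point of highest MAX signal. Among the 33 genes with CACGTG at the summit the nearest copy lay a median of 15 bp from it, and 19 (57.6%) lay within 20 bp. Over the 1310 distinct promoter peaks of all protein-coding genes with the hexamer the median was 34 bp and 32.4% lay within 20 bp. In NPM1 and MRTO4 it lay 1 bp from the summit and in PES1 3 bp. The bases next to the hexamer, read on both sides of the 37 copies at member summits, were C in 45.9%, G in 29.7%, A in 17.6% and T in 6.76%, and over all protein-coding genes they were 40.8%, 24.3%, 15.4% and 19.6%. A flanking T was thus found at 5 of the member positions. This count was added after the data were seen.

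The hexamer was also counted against the start of each gene. Within 300 bp of the canonical TSS, CACGTG occurred in 33 of the 60 genes (55.0%, interval 42.5 to 66.9), beside 12.6% of all protein-coding genes. Read along the gene, 19 of the 60 (31.7%) held it in the first 50 bases of the transcript, beside 1.03% of all protein-coding genes, and 22 (36.7%) in the first 100 bases, beside 1.56%. In the 100 bases before the TSS the shares were 10.0% and 4.41%. In the members the hexamer was thus most frequent after the start, and over all protein-coding genes before it. The other biogenesis genes had it in the first 100 bases in 18.3%, the cytosolic ribosomal protein genes in 2.30% and the mitochondrial ones in 1.28%.

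The 22 genes came from every role except rRNA transcription. They included FBL, RRP12, PNO1, LTV1, RIOK1 and BYSL among 40S and box C/D factors, UTP18, UTP20, WDR43, PWP2, NOP14, NOL6 and IMP4 of the processome, GNL2, GNL3, MRTO4, NOC3L, NOP2, PES1 and RRS1 of 60S assembly, and GAR1 and LYAR. The distance from the TSS to the hexamer ran from 4 bases in PWP2 to 72 in LYAR. All 22 had a MAX promoter peak, with a median fold enrichment of 21.8 and 16 in the top 10% of the list. Of the 314 protein-coding genes with the hexamer there, 59.2% had a MAX promoter peak, with a median of 14.1, and 83 (26.4%) were in the top 10%, beside 72.7% of the 22 members. The position count was chosen after the data were seen. With RefSeq starts on GRCh38, which matched 52 members, it was 15 genes (28.8%) in the first 50 bases, beside 1.19% of 15843 protein-coding genes.

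**Figure D4:**
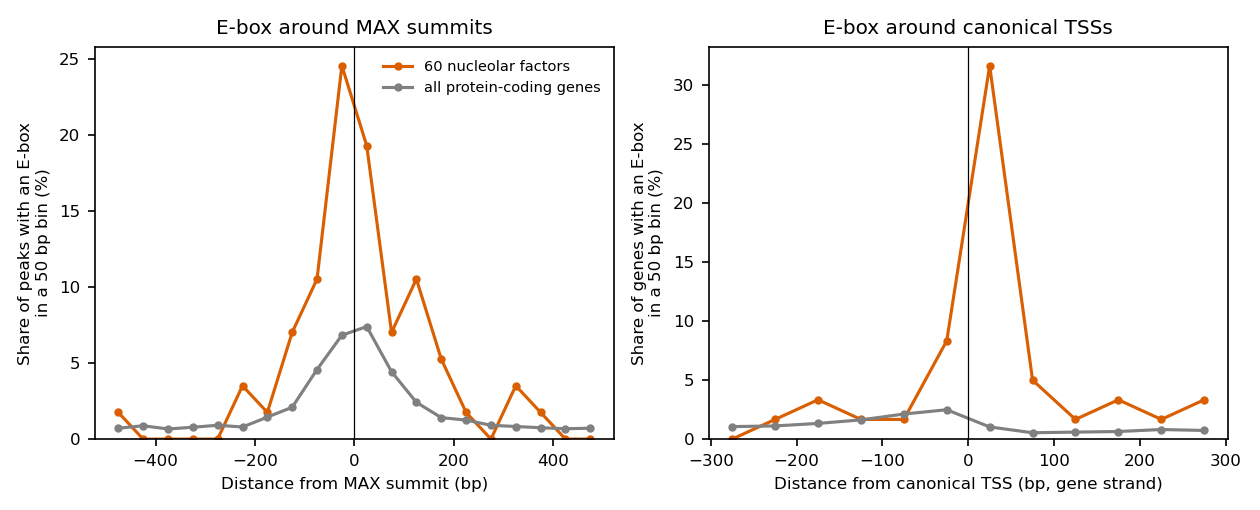
Share (%) of highest MAX promoter peaks with an E-box in each 50 bp bin around the summit (left, 57 peaks of members in orange, all promoter peaks of protein-coding genes in grey) and share of genes with an E-box in each 50 bp bin around the canonical TSS, read on the strand of the gene (right, 60 genes and 20098 genes). On the right the members peak at 31.7% in the first bin after the TSS, where all protein-coding genes are at 1.03%.

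MAX peaks were frequent at members with and without an E-box near the start. Among genes with CACGTG within 300 bp of the canonical TSS, all 33 members had a MAX promoter peak (interval 89.6 to 100), beside 53.7% of 2528 protein-coding genes. Among genes without it, 24 of 27 members did (88.9%, interval 71.9 to 96.1), beside 33.9% of 17570. In both classes the interval of the members lay above the share of protein-coding genes. The top 10% of the list was reached by 23 of the 33 with the hexamer (69.7%, beside 16.7%) and by 5 of the 27 without it (18.5%, beside 4.22%).

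Height moved with the hexamer. The 33 peaks with CACGTG at the summit had a median MAX fold enrichment of 21.8 (range 7.90 to 32.5) and the 24 without it a median of 13.0 (range 4.79 to 26.0), so the ranges overlapped. The same split over all protein-coding genes gave 13.4 (1529 genes) and 10.2 (5781 genes). In the cytosolic ribosomal protein genes it gave 12.5 (15 genes) and 11.7 (63 genes). Of the 28 members in the top 10%, 24 had CACGTG at the summit (85.7%), beside 569 of the 1163 protein-coding genes there (48.9%). NOP2, NPM3 and FBL showed the other case, with the hexamer at the summit and fold enrichments of 7.90, 8.46 and 9.14.

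**Figure D5:**
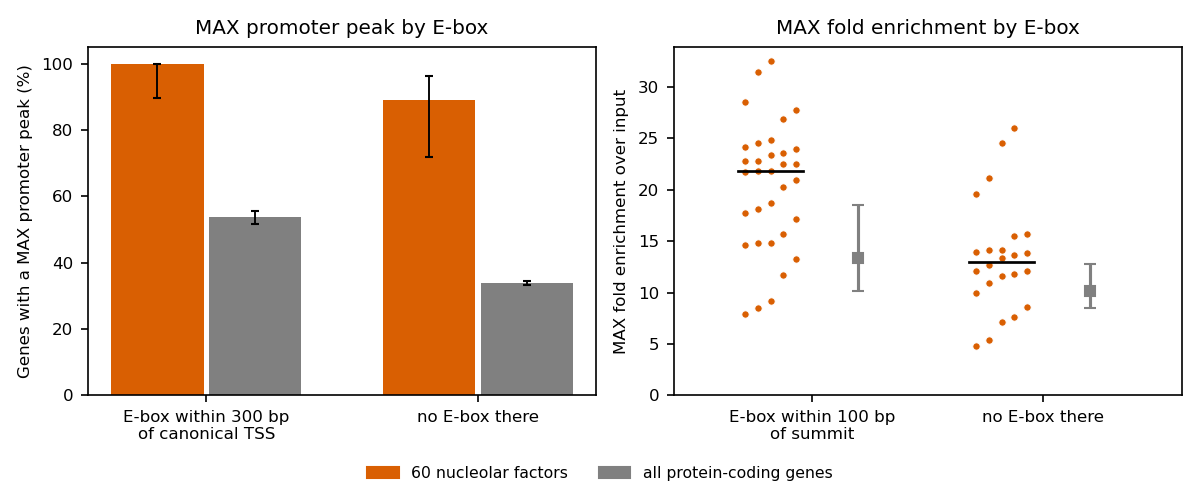
Left, share of genes with a MAX promoter peak (%, bars from 0, Wilson 95% intervals) by presence of an E-box within 300 bp of the canonical TSS. Right, MAX fold enrichment (linear axis) by presence of an E-box within 100 bp of the summit, with a point for each member, a black line at the members' median (21.8 and 13.0) and a grey square with quartile bars for all protein-coding genes (medians 13.4 and 10.2).

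MAX summits sat close to the start sites. The distance to the nearest TSS had a median of 41 bp over the 57 genes and of 117 bp over all protein-coding genes with a peak. The summit lay within 100 bp of a TSS in 42 genes (73.7%, beside 46.0%) and downstream of it in 28 (49.1%, beside 36.4%). Measured from the canonical TSS alone, some summits lay inside the gene. In 10 of the 57 genes (17.5%, beside 14.6%) the summit lay 200 to 1000 bp downstream of the canonical TSS, and in 6 of those 10 it held CACGTG, beside 27.3% of the 1065 protein-coding genes with such a summit. These were NPM1, NCL, DKC1, NPM3 and TCOF1, with summits in intron 1 at 740, 637, 657, 462 and 429 bp, and NOP56 in intron 2 at 337 bp. Alternative starts lay nearer, at 23 bp from the summit in NPM1, 32 bp in NOP56 and 154 bp in NCL, and 336 bp or more away in the other 3. All 3 phosphoprotein and chaperone genes in that set (NCL, NPM1 and NPM3) were of this kind, and the other 4 genes were NOP58, GNL3, BOP1 and IMP3.

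Features of the loci that could move with these values were measured beside them. The input background under the members' peaks had a median of 1.66 fragments, beside 1.74 for all protein-coding genes with a peak. The median pileup was 28 against 19 fragments, and the parts of pileup and background in the higher ratios were not tested. At 9 members the background was the genome-wide value, about 1.28 fragments, and not a local one. They were PES1, WDR43, UTP4, LYAR, IMP4, DKC1, GNL3L, RRN3 and NOC2L. Genes with such a genome-wide background were not counted over all protein-coding genes. Another protein-coding gene started on the opposite strand within 1 kb of 25 of the 60 genes (41.7%), beside 17.7% of all protein-coding genes. A MAX promoter peak was listed for 24 of those 25 members (96%) and for 33 of the other 35 (94.3%), where the shares over all protein-coding genes were 62.2% and 30.8%. The members were therefore occupied at like shares in both kinds of promoter.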

How the data were processed

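BMAL1 and MAX ChIP-seq peak lists of MDA-MB-231 cells were used, with 1 library per antibody and 1 input. According to the submitters' processing notes, reads were aligned with BWA 0.6.2 to hg19 and peaks were called with MACS2 2.0.9, separately for each antibody against the same input. The deposited pileup is a signal, the height of fragments extended to 300 bp at the summit, not scaled per tag. In the lists that the authors deposited, fold enrichment is a ratio, pileup over the background expected from the input. That background is local, with a genome-wide value as its floor. The deposited −log10 p-values and −log10 q-values come from the peak caller. The file headers record a p-value cutoff of 1e-05, with at most 2 duplicate tags kept per position for BMAL1 and 1 for MAX. The peak caller used 13866783 BMAL1 tags, 11545865 MAX tags and 29308882 input tags. The study's methods state a stricter threshold, a −log10 p of at least 8, which was run as an alternative. All listed peaks were used.

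TSSs were taken from GENCODE (release 44, in its version for GRCh37, which is the assembly of hg19), and the annotation behind the authors' own promoter calls was not used here. For 279 protein-coding genes (1 member, BOP1) the canonical transcript was not mapped and the most 5′ start was used. Genes took the highest peak with a summit within 1 kb of any TSS. Motifs were searched on both strands of hg19 in 200 bp at the summit and within 300 bp of the canonical TSS. Genes were placed against the whole MAX list, with ties ranked alike. The share of a group carries a Wilson 95% interval. The members, their roles and the compared gene lists were chosen with earlier results of these data known. Full values were given for the 10 members of highest MAX fold enrichment, members with a BMAL1 peak, NCL, the snoRNP proteins, the rRNA transcription factors and the PES1, BOP1 and WDR12 complex, and the other members were given by value and role. Alternatives covered the window, the TSS set, the p-value threshold, the peak chosen, the measure of enrichment, the motif window and the compared genes. The peak assignment and motif search were tested on simulated data. Promoter sequences of RefSeq (GRCh38.p14) were used for the added position count only. Sequences were read with pysam 0.24.0, tables were handled in Python 3.11.15 with pandas 2.3.3 and numpy 2.4.6, binomial quantiles came from scipy 1.17.1 and plots from matplotlib 3.10.9.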

Additional observations from a re-analysis of the deposited data

How the results depend on the processing

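Of 37 alternatives, 30 gave a value within the 95% interval of the reported one and 7 did not. The share of members with a MAX promoter peak was 85.0% with a 300 bp window (29.1% of all protein-coding genes) and 83.3% with a −log10 p of at least 12 (23.5%). At a −log10 p of at least 8, the threshold in the study's methods, it was 91.7% (55 genes, against 34.1%), since the peaks of HEATR1 (7.36) and NOC2L (7.89) fell below it. CACGTG at the summit fell to 42.1% of members in a 100 bp window (13.3%), and near the TSS it rose to 75% with 1 kb on either side (29.2%). The reported difference in MAX share, 58.6 percentage points, was 46.3 among genes with CACGTG near the canonical TSS, and 33.8 and 63.5 among genes with and without a coding start on the opposite strand within 1 kb. Each of these settings changes the window, the peaks or the genes counted, and the cause was not tested further. The ratio of the median MAX fold enrichment to that of all protein-coding genes, 1.46, ran from 1.45 to 1.87 over its alternatives, and by −log10 p the top 10% held 51.7% of members (5.59%). The values rest on 1 library per antibody, and a median member peak rests on 28 fragments at its summit. No paired analysis was possible because each antibody has a single library.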

Other observations

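The wider ribosome biogenesis pathway, 60 further genes from a list of processing and assembly factors, followed the nucleolar factors at a lower level. MAX promoter peaks in the top 10% of the list were found at 15 of these genes, led by NOL8 (fold enrichment 32.0), WDR36 (28.8), UTP25 (23.3), GRWD1 (22.1) and DDX21 (21.7), an RNA helicase of the nucleolus. NOL8 was the only gene of this list with a BMAL1 promoter peak, with a BMAL1 fold enrichment of 23.6, higher than any BMAL1 value among the nucleolar factors. SENP3, EIF6 and NOL11 had the lowest MAX peaks (5.94, 5.71 and 4.79).

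Among the 23 genes of this list with CACGTG within 300 bp of the canonical TSS, all 23 had a MAX promoter peak, and among the 37 without it, 27 did. The 10 genes without a MAX promoter peak were FCF1, FTSJ3, KRR1, LAS1L, NGDN, NOL12, NOL9, NOP53, NSA2 and SBDS. Peaks with CACGTG at the summit had a median fold enrichment of 18.1 (19 genes), and the others 10.95 (31 genes).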
